A study of Homo sapiens with 29 samples.

Results

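A set of 10 secreted, cytoplasmic or nuclear members of the WNT pathway were followed by poly(A) RNA-seq through oncogene-induced senescence and SMARCA4 knockdown. They were taken by name from the raw count table, with the 2 lanes of each library summed. They are the ligands WNT2, WNT5A, WNT5B and WNT16, the secreted antagonists DKK1, DKK3 and SFRP1, the feedback target AXIN2 and the transcription factors LEF1 and TCF7L2. All 10 of 10 members have a row among the 28266 genes of the table, and 9 passed the filter on low counts that 13136 genes passed. WNT2 did not pass it and was given no test in this fit.

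The cells were IMR90 ER:RAS, human foetal lung fibroblasts carrying a retroviral fusion of the oestrogen receptor ligand domain with oncogenic RAS, which 4-hydroxytamoxifen (4OHT) switches on. Every group carried this construct. DMSO_siNT cells received the solvent DMSO and a non-targeting siRNA (siNT), so RAS stayed off. 4OHT_siNT cells received 4OHT and siNT, and 4OHT_siSMARCA4 cells received 4OHT and an siRNA against SMARCA4, the BRG1 ATPase of the SWI/SNF chromatin remodelling complex. RNA was taken after 7 days, and each group held 6 libraries, 3 with siRNA number 2 and 3 with number 4. The sources used here give neither what the sets named V and VM stand for nor whether replicates were separate cultures, so p-values measure only the spread between these libraries, which may be technical. The model is a single cell line driven by an overexpressed oncogene.

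Library totals ran from 9657309 to 18039313 counts. One 4OHT_siSMARCA4 library, with siRNA number 2 and a VM set in its column name, matched the group's labels but no sample title. It was left out of comparisons by set letters unless stated. SMARCA4 itself was at 189 to 232 CPM (counts scaled to library size with TMM factors) in DMSO_siNT, at 275 to 329.9 in 4OHT_siNT and at 70.4 to 141 in 4OHT_siSMARCA4, and no knockdown library overlapped a siNT library. Its log2 fold change in knockdown against 4OHT_siNT was -1.61 ± 0.14 (SE; adjusted p = 1.3e-06, edgeR). The DMSO_siNT library 4-2V stood apart, with the smallest total, 17915 genes detected against 15993 to 16888 elsewhere, and a summed level of 8 fibroblast markers of 11448 CPM against 26563 to 31306 CPM in the other DMSO_siNT libraries. Epithelial and leukocyte markers were near 0 in every group, at up to 2.51 and 0.717 CPM when summed over a list, and the 4 endothelial markers summed to between 4.3 and 14.9 CPM.

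WNT proteins are secreted lipid-modified ligands. In the canonical branch they bind Frizzled receptors with LRP5 or LRP6, which stops the destruction of β-catenin, and β-catenin then enters the nucleus and joins TCF/LEF factors on their target genes. WNT5A, WNT5B and other ligands also act without β-catenin, through ROR and Frizzled receptors, on cell shape and movement. DKK1 blocks LRP5 and LRP6, SFRP proteins bind the ligands themselves, and AXIN2 is a transcribed target that in turn helps to destroy β-catenin.

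RefSeq promoter windows of GRCh38.p14, from 250 bases before to 50 bases after a start site, were matched for 7 of the 10 members, with DKK3, SFRP1 and AXIN2 not matched. The 3 windows shown belong to DKK1 and LEF1, members with large and opposite differences between growing and senescent cells, and to WNT16, the member that differed between the siNT numbers. The windows are chr10:52314031-52314330 on the plus strand, chr4:108166252-108166551 on the minus strand and chr7:121328750-121329049 on the plus strand, each written 5′ to 3′ in the direction of the gene. Capitals mark matches on either strand to the TCF/LEF core CTTTGA, the TATA box TATAAA, the GC box GGGCGG and the CArG box. AP-1, TGANTCA, was searched as well.
DKK1: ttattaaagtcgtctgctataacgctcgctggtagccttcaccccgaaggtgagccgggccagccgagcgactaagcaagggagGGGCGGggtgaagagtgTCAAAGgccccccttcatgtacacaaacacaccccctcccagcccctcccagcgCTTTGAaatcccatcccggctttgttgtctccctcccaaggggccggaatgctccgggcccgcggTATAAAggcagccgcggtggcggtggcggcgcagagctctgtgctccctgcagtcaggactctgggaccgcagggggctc
LEF1: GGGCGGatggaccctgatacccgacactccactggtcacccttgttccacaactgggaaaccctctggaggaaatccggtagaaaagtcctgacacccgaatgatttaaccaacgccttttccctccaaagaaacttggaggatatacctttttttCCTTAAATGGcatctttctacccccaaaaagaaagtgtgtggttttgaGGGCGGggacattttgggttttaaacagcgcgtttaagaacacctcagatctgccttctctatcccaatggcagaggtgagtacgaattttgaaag
WNT16: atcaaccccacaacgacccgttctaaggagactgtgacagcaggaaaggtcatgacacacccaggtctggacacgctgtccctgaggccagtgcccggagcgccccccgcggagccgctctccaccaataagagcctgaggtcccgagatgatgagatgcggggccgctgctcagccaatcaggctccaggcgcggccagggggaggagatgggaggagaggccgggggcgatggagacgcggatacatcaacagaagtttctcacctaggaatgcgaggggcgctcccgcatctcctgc
Positions count from the start site, with negative values before it. The DKK1 window holds the TCF/LEF core at -149 (minus strand) and -95 (plus strand), a GC box at -166 and a TATA box at -30. The LEF1 window holds a CArG box at -94 and GC boxes at -46 and -250, and the WNT16 window holds none of these letters. Both of these RefSeq starts lie inside the annotated gene. Of 35116 promoter windows of this length, 12.9% hold CTTTGA, 7.71% TGANTCA, 11.5% TATAAA, 45% GGGCGG and 1.29% the CArG box. No other member's window held CTTTGA, while GC boxes were found for WNT2, WNT5A, WNT5B and TCF7L2 and a TATA box for WNT5B. These are matches of letters and say nothing of binding.

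Levels between genes were compared as CPM per kilobase of the Ensembl canonical transcript. In DMSO_siNT the antagonists DKK3 and SFRP1 led, at means of 615 and 350 CPM per kilobase, with overlapping ranges. WNT5A (71.2) and WNT5B (60.4) followed and overlapped each other, then DKK1 (27.4), WNT16 (8.35), TCF7L2 (4.32), LEF1 (0.6), AXIN2 (0.376) and WNT2 (0.264). WNT5B also overlapped DKK1, WNT16 overlapped TCF7L2, and LEF1, AXIN2 and WNT2 overlapped one another. In 4OHT_siNT the order of CPM per kilobase became DKK3 (420), WNT5A (122), SFRP1 (66.6), WNT5B (50.1), LEF1 (4.81), TCF7L2 (4.06), WNT16 (3.72), DKK1 (2.46), AXIN2 (0.372) and WNT2 (0.00979). The ranges of WNT16 overlapped those of LEF1, TCF7L2 and DKK1 there, and SFRP1 overlapped WNT5B and LEF1 overlapped TCF7L2. WNT5A thus stood above SFRP1 in senescent cells and below it in growing cells. In 4OHT_siSMARCA4 WNT5B (53.7 CPM per kilobase) had a higher mean than SFRP1 (31.6) with overlapping ranges, behind DKK3 (256) and WNT5A (151), and the means of WNT16 (5.39), DKK1 (5.05), TCF7L2 (3.82) and LEF1 (2.97) followed, each overlapping its neighbours in that order.

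**Figure D1:**
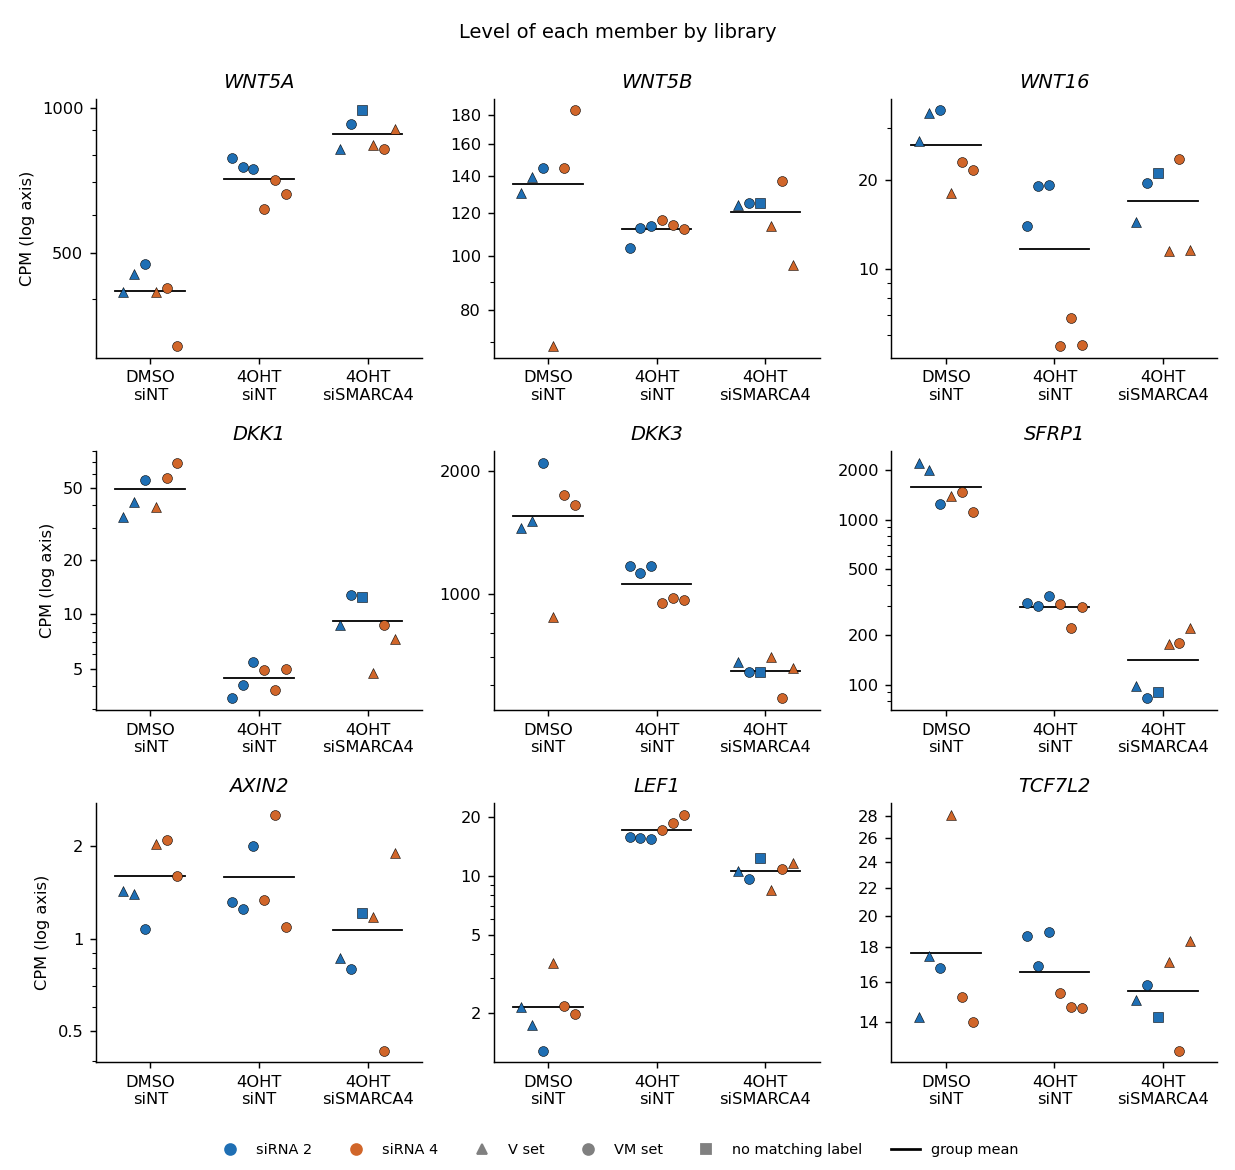
Level in CPM of the 9 tested members in each library, on log axes, by group, with siRNA number by colour, set letters by shape and the group mean as a line. LEF1 lies above every DMSO_siNT library in all 4OHT libraries, DKK1 and SFRP1 below, and WNT16 in 4OHT_siNT splits by siRNA number into 14 to 19.3 CPM and 5.49 to 6.82 CPM.

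The first comparison asked what RAS-induced senescence did to the members, 4OHT_siNT against DMSO_siNT. Of the 9 tested members 6 were called at an adjusted p under 0.05, where 52.8% of all genes tested were called, 2 higher (background 23.9%) and 4 lower (28.9%). The groups did not overlap for 4 members, WNT5A, LEF1, DKK1 and SFRP1, where 33.8% of all genes did not overlap. The median log2 fold change was -0.27 over the 9 tested members and -0.05 over all genes. In bulk RNA, fewer cells that express a gene and less RNA per cell cannot be told apart.

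WNT5A, a ligand of the branch without β-catenin (chr3:55465715-55490539, minus strand), was at 319, 418 and 473 CPM in DMSO_siNT (lowest, median and highest of 6) and at 616, 728 and 788 CPM in 4OHT_siNT. Every senescent library lay above every growing one. The means were 416 ± 52.7 and 713 ± 63.9 CPM (SD, n = 6), a log2 fold change of 0.78 ± 0.1 (SE; adjusted p = 3.56e-06). WNT5A was thus 1.71-fold higher, and the log2 fold change was 0.79 with siRNA number 2 and 0.80 with number 4, a difference of -0.01 (95% interval -0.39 to 0.38).

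WNT5B, its close paralogue (chr12:1529891-1647212, plus strand), was at 68.8, 142 and 184 CPM in DMSO_siNT and at 103, 113 and 116 CPM in 4OHT_siNT, with overlapping groups. The log2 fold change of -0.27 (95% interval -0.6 to 0.05; adjusted p = 0.147) did not pass. The lowest value, 68.8 CPM, belonged to library 4-2V, and without it WNT5B was lower by a log2 fold change of -0.4 (adjusted p = 0.000888). Within the VM sets alone the value was -0.49 (adjusted p = 0.000371). The call on WNT5B therefore turned on 1 library.

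WNT16, a ligand that has been linked to p53 activity in senescent fibroblasts (chr7:121325367-121341104, plus strand), was at 18, 25.1 and 34.4 CPM in DMSO_siNT and at 5.49, 10.4 and 19.3 CPM in 4OHT_siNT. It fell by 1.17 ± 0.31 on the log2 scale (SE; adjusted p = 0.00371), and the groups overlapped, since the highest 4OHT_siNT libraries, both siNT 2, lay above the lowest DMSO_siNT library, siNT 4-2V. Within siNT 2 the log2 fold change was -0.85 and within siNT 4 it was -1.80, and this difference of 0.95 (95% interval 0.21 to 1.70) did not pass across all genes (p = 0.0154, adjusted p = 0.138). In IMR90 ER:RAS cells at day 7, then, WNT16 mRNA was lower with RAS on under both siNT numbers. The call counts by number were 5 of 9 members with siRNA 2, where 37.2% of all genes were called, and 6 of 9 with siRNA 4, where 52.1% were, the added member being DKK3.

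WNT2, a canonical ligand of lung mesenchyme (chr7:117275451-117323152, minus strand), was counted in DMSO_siNT at 40, 6 and 1 reads in libraries 2-1V, 2-2V and 2-2VM and at 17, 3 and 6 in 4-2V, 4-2VM and 4-3VM. In 4OHT_siNT 4 of 6 libraries had 0 reads and the highest had 2, and in 4OHT_siSMARCA4 4 of 6 had 0 and the highest had 1. Summed over a group these were 73, 3 and 2 reads. The ratio of DMSO_siNT to 4OHT_siNT was 26.6 (95% interval 8.74 to 132), and from the VM sets of DMSO_siNT alone it was 6.7 (1.72 to 37.9), intervals that cover counting error only and not the spread between libraries. A count of 0 allowed up to 3 reads in a library, or 0.168 to 0.247 CPM in the libraries with 0 reads.

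DKK1, the LRP5/LRP6 blocker (chr10:52314281-52318042, plus strand), was at 34.4, 48.6 and 69 CPM in DMSO_siNT and at 3.42, 4.49 and 5.47 CPM in 4OHT_siNT. The lowest growing library was above the highest senescent one by a wide gap. It fell by 3.47 ± 0.23 on the log2 scale (adjusted p = 3.17e-10), the most of any tested member, and the within-VM value was -3.77. Library 4-2V did not decide it, as leaving out any 1 library gave -3.56 to -3.34.

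SFRP1, which binds WNT ligands outside the cell (chromosome 8), was at 1106, 1422 and 2210 CPM in DMSO_siNT and at 219.7, 305 and 344 CPM in 4OHT_siNT, with no overlap. The log2 fold change was -2.40 ± 0.24 (adjusted p = 1.06e-07), and within VM sets -2.09. In growing cells SFRP1 was at 1381 to 2210 CPM in V sets and at 1106 to 1464 CPM in VM sets.

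DKK3, a Dickkopf-family protein that does not share the LRP-blocking action of DKK1 (chr11:11956207-12009769, minus strand), was at 875, 1577 and 2095 CPM in DMSO_siNT and at 952, 1051 and 1172 CPM in 4OHT_siNT. All growing libraries but 4-2V, at 875 CPM, were above the senescent ones. It fell by 0.55 ± 0.15 on the log2 scale (adjusted p = 0.00456), and within VM sets by 0.79. The annotated exons of DKK3 share 5681 bases with those of USP47 on the opposite strand, and whether reads were counted by strand is not given in the sources used here.

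LEF1, a TCF/LEF factor that is itself a WNT target (chr4:108047545-108168956, minus strand), was at 1.29, 2.05 and 3.59 CPM in DMSO_siNT and at 15.4, 16.4 and 20.5 CPM in 4OHT_siNT. These are 18 to 30 reads per growing library against 209 to 274 per senescent library. It rose by a log2 fold change of 3.03 ± 0.18 (adjusted p = 5.88e-11), 8.16-fold, with siRNA number 2 (3.19) and 4 (2.91) close to each other. The antisense LEF1-AS1 shares 279 exon bases with LEF1.

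TCF7L2, the other TCF/LEF factor among the members (chr10:112950247-113167678, plus strand), was at 14, 16 and 28.1 CPM in DMSO_siNT and at 14.7, 16.2 and 18.9 CPM in 4OHT_siNT, with full overlap (log2 fold change -0.08, 95% interval -0.40 to 0.24, adjusted p = 0.668). AXIN2 (chr17:65528563-65561648, minus strand), the feedback target, was at 1.07, 1.51 and 2.09 CPM and at 1.09, 1.32 and 2.52 CPM. These are 14 to 37 reads a library, and the log2 fold change was -0.0028 with an interval of -0.62 to 0.61 (adjusted p = 0.995). A change of AXIN2 of any size within that interval is compatible with the values of these libraries. LEF1 and AXIN2 are both known as canonical targets, and of this pair LEF1 had an interval away from 0 and AXIN2 did not.

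Markers of fibroblasts moved in the same comparison. Of the 8 fibroblast markers 5 fell, none rose and 3 were not called, with a summed level of 11448 to 31306 CPM in DMSO_siNT and of 14920 to 19815 CPM in 4OHT_siNT. DCN, the proteoglycan decorin, fell from a mean of 625 to 17.4 CPM, and VIM was not called (log2 fold change 0.10). The part of this shift in the members' values was not tested.

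**Figure D2:**
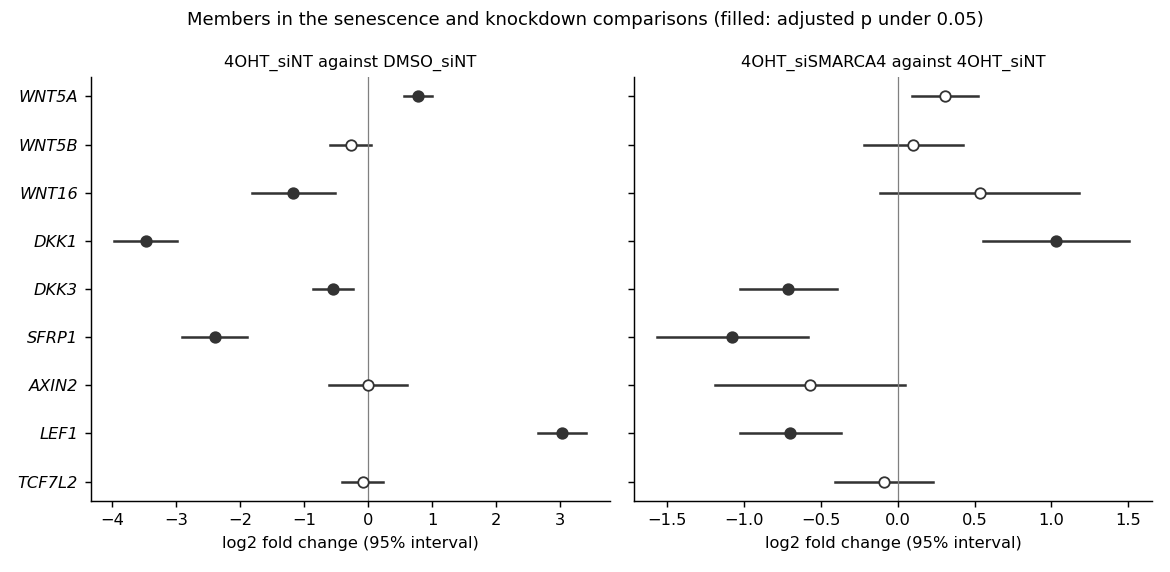
Log2 fold change of each tested member with its 95% interval in the senescence comparison (left) and the knockdown comparison (right), with filled points for an adjusted p under 0.05. DKK1 lies at -3.47 on the left and at 1.03 on the right, LEF1 at 3.03 and -0.70, and SFRP1 on the lower side of 0 in both.

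The second comparison asked what losing SMARCA4 did to the members in senescent cells, 4OHT_siSMARCA4 against 4OHT_siNT. Of the 9 tested members 4 were called, where 10.6% of all genes tested were called. DKK1 was higher (background 4.99%), and DKK3, SFRP1 and LEF1 were lower (5.65%). The groups did not overlap for 3 members, WNT5A, DKK3 and LEF1, where 11.4% of all genes did not. The median log2 fold change was -0.09 over the members and 0.01 over all genes.

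DKK1 was at 4.71, 8.74 and 12.7 CPM in the knockdown (lowest, median and highest of 6), against 3.42, 4.49 and 5.47 CPM in 4OHT_siNT. All but the lowest knockdown library, siSMARCA4 4-2V, were above the senescent controls. The means were 9.12 ± 3.07 and 4.45 ± 0.79 CPM (SD, n = 6), a log2 fold change of 1.03 ± 0.23 (SE; adjusted p = 0.0059), from 84 to 160 reads against 47 to 74. The knockdown level stayed below that of growing cells, which was 49.5 ± 13.2 CPM.

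DKK3 fell again, to 555, 652 and 700 CPM, below every 4OHT_siNT library. The log2 fold change was -0.71 ± 0.15 (adjusted p = 0.00466). SFRP1 went to 82.9, 137 and 220.1 CPM, and its highest knockdown library, siSMARCA4 4-3V, reached the lowest senescent control, siNT 4-2VM at 219.7 CPM. Its log2 fold change was -1.07 ± 0.23 (adjusted p = 0.00564). LEF1 fell to 8.53, 10.7 and 12.3 CPM, below every 4OHT_siNT library and above every DMSO_siNT library, at a log2 fold change of -0.70 ± 0.16 (adjusted p = 0.00695).

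WNT5A was at 819.9, 871 and 989 CPM, above every 4OHT_siNT library, and its log2 fold change of 0.31 ± 0.1 did not pass (95% interval 0.09 to 0.52, p = 0.00719, adjusted p = 0.0605). It passed with DESeq2 (0.30, adjusted p = 0.015) and in edgeR without the DMSO_siNT library 4-2V (0.30, adjusted p = 0.0184), which is not part of the comparison but enters the common estimate of spread. It also passed without DMSO_siNT 4-3VM (0.30, adjusted p = 0.0382) and with the 2 compared groups fitted alone (0.31, adjusted p = 0.00854). In VM sets with the unlabelled library it passed as well (0.34, edgeR adjusted p = 0.0311), where 30.4% of all genes were called. That setting was chosen after seeing the data. WNT5A stayed without a call in 6 of 9 alternative settings and in 16 of 18 fits with 1 library left out. The fit of the 2 compared groups called 26.9% of all genes and the fit without 4-2V called 24.6%, against 10.6%. WNT5B (0.10, -0.22 to 0.43, adjusted p = 0.74) and TCF7L2 (-0.09, -0.41 to 0.23, adjusted p = 0.772) overlapped between groups.

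AXIN2 was at 0.432, 1.02 and 1.9 CPM, from 5 to 23 reads, with a log2 fold change of -0.57 (95% interval -1.19 to 0.05, adjusted p = 0.244). In VM sets only it was -1.36 (adjusted p = 0.0508), and between VM and V sets of the knockdown AXIN2 differed by -1.05 (p = 0.0494, adjusted p = 0.611). WNT16 was at 11.5, 17 and 23.6 CPM and did not pass (0.53, -0.11 to 1.18, adjusted p = 0.304), and its 4OHT_siNT controls split by siRNA number.

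All 6 of the 4OHT_siNT libraries came from VM sets, while 3 knockdown libraries came from V sets. Within VM sets the log2 fold changes were 1.26 for DKK1, -0.84 for DKK3, -1.20 for SFRP1 and -0.76 for LEF1, all called. These came from 2 labelled knockdown libraries, without the unlabelled library whose column name also gives VM. Of the fibroblast markers 6 of 8 fell in the knockdown, none rose, and their sum was 8627 to 12575 CPM against 14920 to 19815 CPM in 4OHT_siNT. COL1A1 went from a mean of 7053 to 2642 CPM and VIM was not called (-0.03). The part of this shift in the fall of SFRP1 and DKK3 was not tested.

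Set against growing cells, with libraries shared with both earlier comparisons, 5 of the 9 tested members were called in 4OHT_siSMARCA4 against DMSO_siNT, where 50.5% of genes were called. WNT5A (1.09 on the log2 scale) and LEF1 (2.33) were higher (background 23.3%), and DKK1 (-2.44), DKK3 (-1.26) and SFRP1 (-3.47) were lower (27.3%). The groups did not overlap for any of these 5, where 29.6% of all genes did not. WNT16 was at -0.64 (95% interval -1.27 to 0.0027, adjusted p = 0.0899), and without library 4-2V at -0.73 (adjusted p = 0.0373). WNT5B (-0.17) passed without the same library as well (-0.31, adjusted p = 0.00677), and AXIN2 (-0.57) passed without siSMARCA4 4-3V (-0.79, adjusted p = 0.0315) and in VM sets only (-1.36, adjusted p = 0.0411).

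Each siRNA number was then taken alone, in a fit of 6 levels that tested 13659 genes. Numbers only name siRNAs, so siNT 2 is no nearer to siSMARCA4 2 than siNT 4 is. SMARCA4 was at 78.8 to 125 CPM with siSMARCA4 2 and at 70.4 to 141 CPM with siSMARCA4 4. Against the siNT of the same number, siSMARCA4 2 called DKK1, DKK3 and SFRP1, 3 of 9 members where 7.67% of all genes were called. For siSMARCA4 4 the called members were LEF1 and WNT16, 2 of 9 where 2.71% were called.

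SFRP1 was at 97.8, 82.9 and 91 CPM in the 3 libraries of siSMARCA4 2 and at 176, 179.8 and 220.1 CPM in those of siSMARCA4 4. These ranges did not touch. The log2 fold change against siNT was -1.81 ± 0.2 with number 2 (adjusted p = 6.47e-05) and -0.54 ± 0.2 with number 4 (adjusted p = 0.15). Their difference was -1.28 (95% interval -1.86 to -0.69, p = 0.000289), and it did not pass across all genes with edgeR (adjusted p = 0.141) but did with DESeq2 (adjusted p = 0.00463). Between the siSMARCA4 numbers directly SFRP1 differed by -1.07 ± 0.2 (edgeR adjusted p = 0.0715, DESeq2 0.000127), where 0.00732% of all genes were called by edgeR. No member was called for a comparison that differed between numbers by edgeR, where 0.0146% of all genes, 2 of 13659, were called in the knockdown comparison and 0% in the senescence comparison. At an unadjusted p under 0.05 these were 995 and 3258 genes.

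WNT16 was at 14, 19.1 and 19.3 CPM in the siNT 2 libraries of 4OHT_siNT and at 5.49, 6.82 and 5.55 CPM in the siNT 4 libraries. WNT16 thus differed between the siNT 2 and siNT 4 libraries of senescent cells, by a log2 difference of 1.55 ± 0.26 (adjusted p = 0.0343). In that comparison 0.0732% of all genes were called. Whether siRNA or culture made this difference was not tested. In growing cells siNT 2 was also the higher, at 27.2, 33.6 and 34.4 CPM against 18, 23.1 and 21.6 CPM, a log2 difference of 0.59 that did not pass (adjusted p = 0.131), where 0.0512% of genes were called. In the knockdown the values were 14.4, 19.6 and 21.2 CPM with number 2 and 11.5, 23.6 and 11.6 CPM with number 4.

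The call on the knockdown difference of WNT16 varied with the siNT number used as control. It was 0.08 (adjusted p = 0.902) for siSMARCA4 2 against siNT 2 and 1.37 (adjusted p = 0.011) for siSMARCA4 4 against siNT 4. With the controls exchanged it was 1.62 (adjusted p = 0.00166) for siSMARCA4 2 against siNT 4 and -0.18 (adjusted p = 0.82) for siSMARCA4 4 against siNT 2. The comparisons of siSMARCA4 with siNT 4 gave calls and those with siNT 2 did not. All these controls were from VM sets, while both siSMARCA4 numbers included V sets. WNT16 in the knockdown was at 11.55 to 14.4 CPM in V sets and at 19.6 and 23.6 CPM in VM sets. The unlabelled library was at 21.2 CPM. The part of the set letters in these comparisons was not tested.

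DKK1 was at 8.74, 12.7 and 12.4 CPM with siSMARCA4 2 and at 4.71, 8.73 and 7.34 CPM with siSMARCA4 4. The lowest of the first, at 8.74, and the highest of the second, at 8.73, were almost equal. The log2 fold changes were 1.39 (adjusted p = 0.00586) and 0.57 (adjusted p = 0.312), with a difference of 0.82 (95% interval -0.02 to 1.66). DKK3 fell to about the same level with both, 644 to 680.3 and 555 to 700 CPM, at -0.81 (adjusted p = 0.0268) and -0.61 (adjusted p = 0.127). LEF1 was at 9.64 to 12.3 and 8.53 to 11.7 CPM, at -0.53 (adjusted p = 0.112) and -0.87 (adjusted p = 0.022), with a difference of 0.35 (-0.23 to 0.92). With the controls exchanged, siSMARCA4 2 against siNT 4 called 5 of 9 members, WNT5A, WNT16, DKK1, SFRP1 and LEF1, where 10.2% of all genes were called. For siSMARCA4 4 against siNT 2 the called members were DKK3 and SFRP1, 2 of 9 where 3.41% were called. SFRP1 was thus called in both exchanged comparisons, at -1.61 (adjusted p = 0.000318) and -0.75 (adjusted p = 0.0459).

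**Figure D3:**
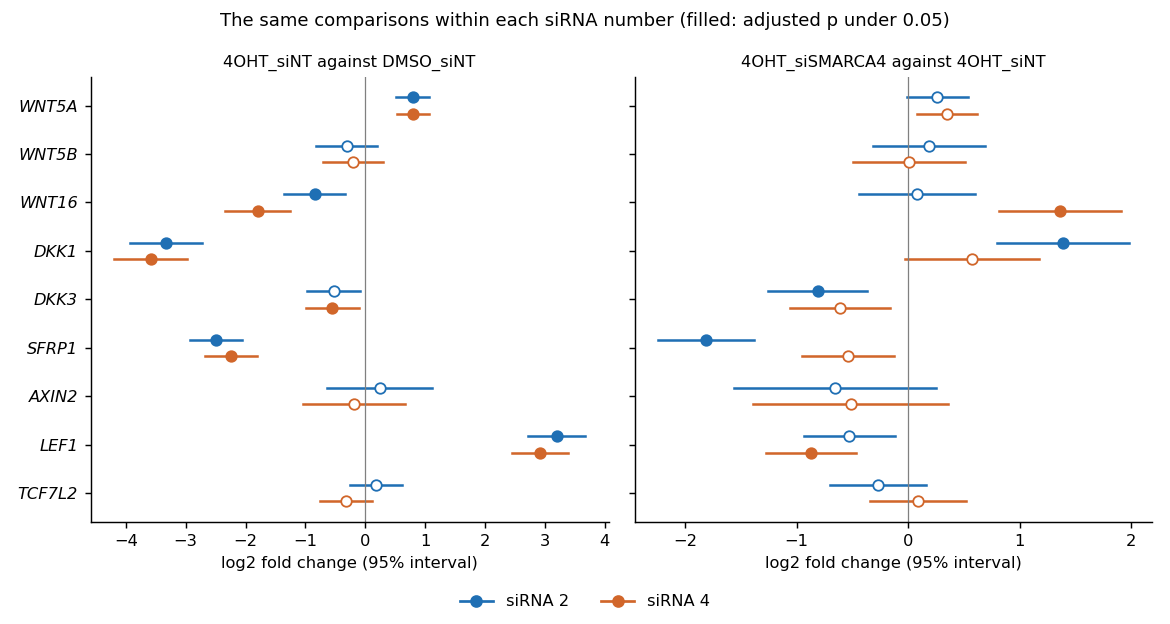
Log2 fold change with its 95% interval within siRNA number 2 (blue) and 4 (orange) for the senescence comparison (left) and the knockdown comparison (right), filled where the adjusted p was under 0.05. On the right WNT16 lies at 0.08 and 1.37 and SFRP1 at -1.81 and -0.54, while WNT5A, DKK3 and LEF1 have overlapping intervals.

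Between set letters no member was called by edgeR at an adjusted p under 0.05, neither in DMSO_siNT, where 0.324% of all genes were called, nor in 4OHT_siSMARCA4, where 0.101% were. WNT2, tested in this fit, had the largest difference in DMSO_siNT (log2 difference -2.82, adjusted p = 0.123). DKK1 was higher in every VM than in every V library of DMSO_siNT, and in the knockdown the sets overlapped. It was at 34.4 to 41.7 CPM in V sets and 55.4 to 69 CPM in VM sets of DMSO_siNT (log2 difference 0.67, p = 0.0055, adjusted p = 0.162), and at 4.71 to 8.74 CPM in V sets and 8.73 and 12.7 CPM in VM sets of the knockdown (0.65, p = 0.0186, adjusted p = 0.465). In the knockdown WNT16 was at 11.5 to 14.4 CPM in V sets and at 19.6 and 23.6 CPM in VM sets (0.79, adjusted p = 0.766). SMARCA4 itself was at 92.7 to 141 CPM in V sets of the knockdown and at 70.4 and 87 CPM in VM sets. The part of this in the members' values was not tested.

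Beyond the members, 93 other genes of the pathway in 8 lists were read from the same fit, and 61 were tested. In senescence 40 of these were called (65.6%, against 52.8% of all genes), 19 higher and 21 lower. In the knockdown 12 were called (19.7%, against 10.6%), 2 higher and 10 lower. This count moved with the setting, to 23 of 65 in VM sets only (35.4%, where 21% of all genes were called). With the set name as a replicate block it was 2 of 62 (3.23%, where 1.77% of all genes were called). The members and these lists were chosen with earlier results of these data known, so the shares do not test for enrichment. Values below are log2 fold changes, and mean CPM are given with the SD over 6 libraries.

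Among 15 other ligands 5 were tested, of which 3 rose and 1 fell in senescence. WNT7B went from 0.586 ± 0.257 to 28 ± 3.65 CPM (5.59, adjusted p = 7.69e-13) and WNT9A from 2.07 ± 1.15 to 23.3 ± 3.59 CPM (3.45, adjusted p = 3.35e-07). In the knockdown these parted. WNT9A rose further to 62.7 ± 32.7 CPM (1.43, adjusted p = 0.00771), with groups that overlapped, and WNT7B fell to 16.2 ± 3.52 CPM (-0.79, adjusted p = 0.00513), with groups that did not.

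WLS, the carrier that brings lipid-modified WNT proteins to the cell surface, rose from 341 ± 40 to 2311 ± 77.4 CPM in senescence (2.76, adjusted p = 4.31e-12) and went to 1571 ± 314 CPM in the knockdown (-0.56, adjusted p = 0.00671). PORCN, the acyltransferase that adds the lipid, rose in senescence (0.91, adjusted p = 0.0031). Of 11 genes of secretion and the R-spondin axis 4 were tested, with 2 higher and 1 lower in senescence and 1 lower in the knockdown.

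Of 13 other secreted or membrane antagonists 4 were tested, all called in senescence, 2 higher and 2 lower, and 3 fell in the knockdown. DKK2, a relative of DKK1, rose from 1.44 ± 0.614 to 7.96 ± 0.354 CPM (2.42) and returned to 2.49 ± 1.98 CPM in the knockdown (-1.66, adjusted p = 0.0106), the opposite course to DKK1. KREMEN1, a receptor for DKK proteins, rose (1.06) and then fell (-0.64, adjusted p = 0.0315).

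Among 12 tested receptors 1 rose and 6 fell in senescence. FZD8 rose from 8.24 ± 4.09 to 94 ± 12.3 CPM (3.50, adjusted p = 1.86e-09), and FZD2 fell from 136 ± 3.82 to 15.4 ± 1.28 CPM (-3.14, adjusted p = 4.22e-14) and further to 8.38 ± 1.49 CPM in the knockdown (-0.88, adjusted p = 4.55e-05). Another receptor fell in the knockdown, making 2 of 12.

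Of the 13 relay genes in the cytoplasm, all tested, 3 were higher and 2 lower in senescence, and 2 were lower in the knockdown. The largest changes among those called were in BTRC (0.77), a ubiquitin ligase subunit for β-catenin, and the kinase GSK3A (0.70). In the knockdown DVL3 (-0.50, adjusted p = 0.0125), a Dishevelled scaffold, and CTNNBIP1 (-0.41, adjusted p = 0.0462), an inhibitor of the β-catenin and TCF contact, fell. Of 9 nuclear factors tested 3 rose and 4 fell in senescence. TCF7 (1.33, adjusted p = 4.19e-09), another TCF/LEF factor, and the corepressor TLE3 (1.37, adjusted p = 5.91e-07) rose. In the knockdown PYGO1, a β-catenin cofactor, rose (0.60, adjusted p = 0.00543) and TCF7L1 fell (-0.55, adjusted p = 0.038).

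Among 5 tested target genes 2 rose in senescence, NKD2 (4.21, adjusted p = 9.43e-08) from 0.205 ± 0.234 to 4.26 ± 0.906 CPM and MYC (0.70, adjusted p = 0.000338), and none was called in the knockdown, which put AXIN2 among targets with no call there. Of 9 planar polarity genes, which act downstream of ligands such as WNT5A, 3 rose and 5 fell in senescence, among them PRICKLE1 (-1.89, adjusted p = 1.3e-09) and CELSR1 (0.79, adjusted p = 0.0208), and none was called in the knockdown.

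**Figure D4:**
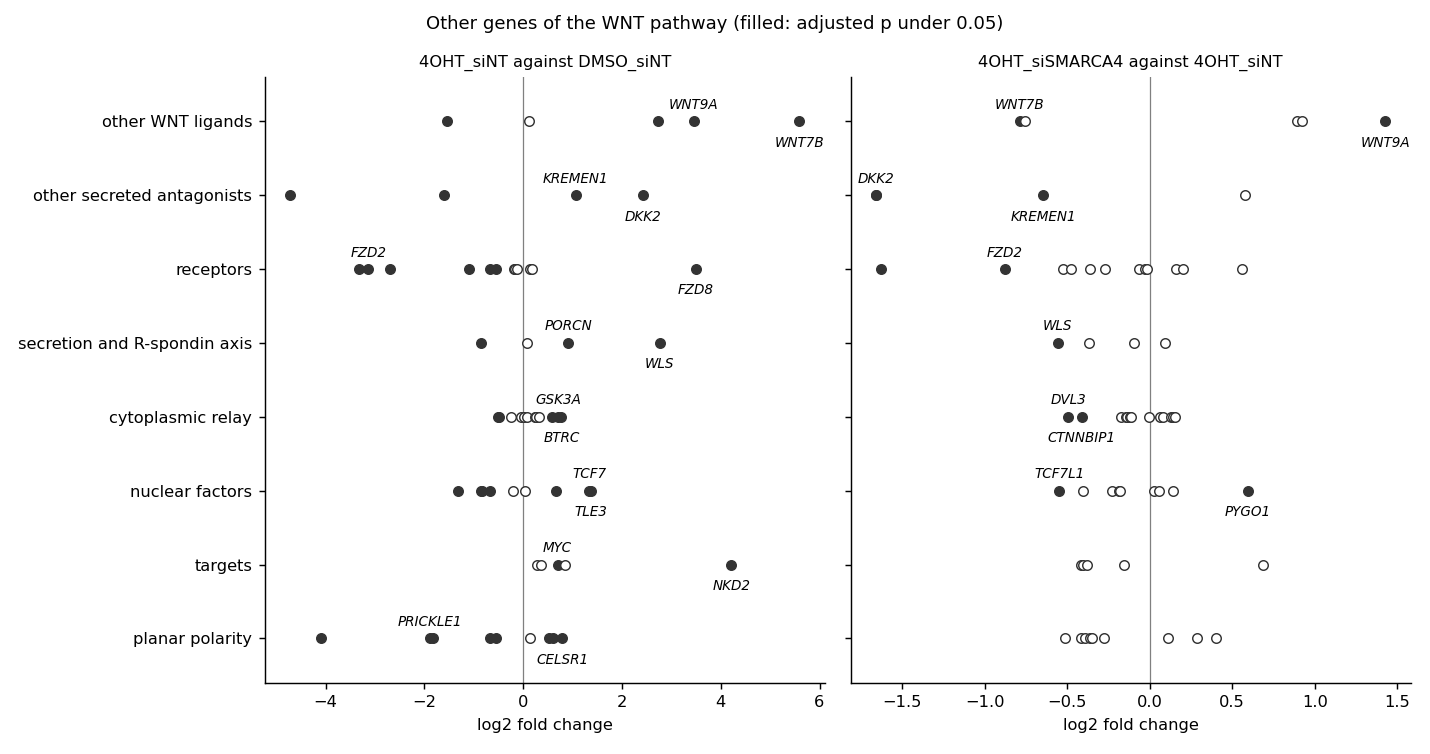
Log2 fold change of the 61 tested genes of the other WNT pathway lists, 1 row per list, in the senescence comparison (left) and the knockdown comparison (right), with filled points for an adjusted p under 0.05 and names for the genes given in the text. WNT7B, NKD2 and FZD8 lie furthest to the right in senescence, at 5.59, 4.21 and 3.50, and WNT9A is the furthest to the right in the knockdown, at 1.43.

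For each tested member the gene outside the list with the most similar course was found among 11506 genes, as the smallest root-mean-square difference of log2 CPM, each gene centred on its mean, over the 18 libraries. For WNT5A this was MKLN1 at 0.12, for DKK3 it was SPARC at 0.17, for SFRP1 it was SLIT2 at 0.32 and for DKK1 it was PRRX2 at 0.34. LEF1 lay nearest to TNFAIP6 at 0.35 and WNT16 to SOCS2 at 0.35. These distances can be read against the members' own SD over the libraries, which was 0.49 for WNT5A, 0.57 for DKK3, 1.56 for SFRP1, 1.52 for DKK1, 1.34 for LEF1 and 0.79 for WNT16. WNT5B (MRPL9, 0.12), TCF7L2 (SMURF2P1-LRRC37BP1, 0.14) and AXIN2 (NBPF11, 0.34) had smaller SDs, of 0.29, 0.25 and 0.52.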

How the data were processed

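Poly(A) RNA-seq of 18 libraries in 3 groups was used, from 36 columns (2 lanes a library, summed). The authors deposited raw counts per gene, aligned to hg38 with STAR 2.7.8a per the submitters' processing notes, which also name DESeq2 1.36.0. The counting tool and its strand setting are not given in the sources used here. Of 29 labelled samples 17 matched a library, 1 library matched a group only, and the remaining labelled samples were not used. Counts were fitted with edgeR 4.0.16 (quasi-likelihood, filterByExpr with a minimum count of 10, TMM, all groups in 1 fit, Benjamini-Hochberg over all genes tested) in R 4.3.3, with DESeq2 1.42.0 as an alternative, and the scripts were tested on simulated data. CPM are on the TMM scale, log2 CPM has a prior count of 2, and intervals cover 95%. Library totals ran from 9657309 to 18039313 counts, and 3 reads corresponded to 0.168 to 0.359 CPM. The members and lists were chosen with earlier results of these data known. Named genes beyond the members and SMARCA4 are the 2 called genes with the largest change per list in each of the first 2 comparisons, and the nearest gene per member, all with a mean log2 CPM above 1. DCN, COL1A1 and VIM, fibroblast markers, fall outside this rule and were chosen after their values were seen. Alternatives were scaling, filter, test, sets, siRNA number and leaving out each library. No 2 libraries of a group agreed within sampling noise.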

Additional observations from a re-analysis of the deposited data

Results flagged for a closer look

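In 6 of 27 member and group pairs of 6 libraries, 1 library lay further from its neighbour, on the log2 CPM scale, than Dixon's 95% limit allows, and chance alone gives this in about 1 in 20 groups. Library 4-2V of DMSO_siNT had WNT5B at 68.8 CPM (others 130 to 184) and TCF7L2 at 28.1 CPM (others 14 to 17.5). Library 4-3VM of DMSO_siNT had WNT5A at 319 CPM (others 414 to 473). In 4OHT_siNT, library 4-2VM had SFRP1 at 219.7 CPM (others 297 to 344) and library 2-1VM had WNT5B at 103 CPM (others 112 to 116). Library 4-2VM of 4OHT_siSMARCA4 had DKK3 at 555 CPM (others 644 to 700).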

How the results depend on the processing

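Across the alternatives, 211 of 243 member fold changes kept their direction and their side of the threshold, and 465 of 486 did when 1 library was left out. DESeq2 and edgeR without the filter also included WNT2. Each called 7 of 10 members in senescence, where 47.3% and 33.2% of all genes were called. Leaving out 1 library gave 6 to 7 calls in senescence, against 6, where 49% to 58.3% of all genes were called. In the knockdown it gave 4 to 5, against 4, where 6.93% to 24.6% were called. Between the knockdown and growing cells it gave 5 to 7, against 5, where 47.6% to 59.1% were called. The knockdown count of members was 2 with siRNA 4 alone, where 2.71% of all genes were called. The other WNT genes called in the knockdown were 12, and 23 in VM sets only, where the share of all genes called was 21% in place of 10.6%. With DESeq2 the calls between siRNA numbers within groups were 2 in place of 1, and a comparison differing between numbers was called for 1 member in place of 0.

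Set names recur across groups, and 5 of 15 same-named pairs deviated together with r over 0.1 (range -0.29 to 0.30). They were not taken as pairs in the main fit. Pairs with unlike names were not compared, so these values cannot tell whether the sets were paired. With the set name as a replicate block, members called were 5 in senescence (32.7% of all genes in that fit), 1 in the knockdown (DKK1; 1.77%) and 5 between the knockdown and growing cells (35.1%), and other WNT genes called in the knockdown were 2 of 62 (3.23%). WNT16 in senescence was -1.14 (adjusted p = 0.0695) and, in the knockdown, DKK3 was -0.63 (0.27), SFRP1 -1.19 (0.082) and LEF1 -0.91 (0.0928).

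Values near 0 changed sign. AXIN2 in senescence, -0.0028, was 0.010 with RLE scaling, 0.019 with DESeq2, 0.028 without a filter, 0.23 with the block, 0.0070 in VM sets, 0.012 with only 2 groups, 0.24 for siRNA 2 alone and 0.0052 in VM sets with the unlabelled library (chosen after seeing the data), and -0.18 to 0.099 with 1 library left out. TCF7L2 in senescence, -0.08, was 0.039 with the block, 0.11 in VM sets, 0.11 in those with the unlabelled library and 0.18 for siRNA 2 alone, and -0.13 to 0.099 with 1 library left out. In the knockdown it was 0.088 for siRNA 4 alone, and against growing cells -0.23 to 0.0015 with 1 library left out. The causes were not tested. Low counts limit AXIN2 and WNT2.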
